A study of Mus musculus with 2 samples.

Results

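Secretory ameloblasts, the tall epithelial cells that lay down enamel, were studied here as the barcodes of 2 single-cell libraries that were rich in enamel transcripts. A barcode, which stands for 1 captured cell, was a member when it met 4 conditions. It had at least 500 detected genes and at most 20% of unique molecular identifiers (UMIs, 1 per captured RNA molecule) from mitochondrial genes. It held at least 3 UMIs of the epithelial genes Epcam, Cdh1, Krt5, Krt14 and Perp together. At most 100 of every 10000 UMIs came from the collagen genes Col1a1, Col1a2 and Col3a1. At least 100 of every 10000 came from Amelx, Ambn and Enam, the genes of amelogenin, ameloblastin and enamelin. The rule found 284 cells among 30019 barcodes, 172 in the control and 112 in the library with an epithelial deletion of Edar. These are called the enamel-rich cells. The 11 genes of the rule chose them, so the levels of these genes are given as a description only.

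The libraries were made from germs of the lower first molar of newborn mice on a C57BL/6-type background. The control, Edarfl/fl, carries loxP sites in both copies of Edar, the receptor of ectodysplasin, and no Cre. The other group, K14cre;Edarfl/fl and called the K14cre library below, carries the same floxed alleles plus a Cre recombinase driven by the keratin 14 promoter, which is active in oral and dental epithelium. The study asked what loss of Edar in epithelium does to the tooth germ, and this comparison asks what the enamel-rich cells of both groups express. Each group was 1 library, so genotype, animals, dissociation, capture and depth cannot be told apart, and no difference below was tested across animals. All intervals are at 95% and cover counting error only.

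Ameloblasts arise from the inner enamel epithelium. They leave the cell cycle, turn their secretory pole towards the dentin, and release amelogenin, ameloblastin and enamelin, which are cut by the protease Mmp20 as crystals grow. Preameloblasts pass through a phase of Dspp and Shh expression, and maturation-stage ameloblasts later switch on Klk4, Amtn and Odam. Metallothioneins such as Mt1 are small cysteine-rich proteins that bind zinc and copper.

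The promoters of the 3 enamel genes of the rule and of Mmp20 are shown first, because the cells were chosen or are marked by these transcripts and because the homeobox factors Dlx3 and Msx2, described below, bind motifs with a TAATT core. The windows run from 250 bases before to 50 bases after the start of the RefSeq transcript (GRCm38.p6, the assembly of mm10), 5′ to 3′. Capitals mark TAATT, or AATTA where it lies on the other strand.
Amelx (chrX:169187160-169187459, minus strand): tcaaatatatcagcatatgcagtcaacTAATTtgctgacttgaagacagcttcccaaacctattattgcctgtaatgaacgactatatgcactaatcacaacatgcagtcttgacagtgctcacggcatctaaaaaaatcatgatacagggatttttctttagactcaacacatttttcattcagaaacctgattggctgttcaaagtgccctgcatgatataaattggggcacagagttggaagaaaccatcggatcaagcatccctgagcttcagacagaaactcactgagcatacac
Ambn (chr5:88455741-88456040, plus strand): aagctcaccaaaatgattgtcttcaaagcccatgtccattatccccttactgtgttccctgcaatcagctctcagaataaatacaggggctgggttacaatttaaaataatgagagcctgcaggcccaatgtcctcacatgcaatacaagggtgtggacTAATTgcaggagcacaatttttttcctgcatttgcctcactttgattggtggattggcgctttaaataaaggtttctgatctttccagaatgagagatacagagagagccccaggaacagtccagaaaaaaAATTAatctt
Enam (chr5:88487725-88488024, plus strand): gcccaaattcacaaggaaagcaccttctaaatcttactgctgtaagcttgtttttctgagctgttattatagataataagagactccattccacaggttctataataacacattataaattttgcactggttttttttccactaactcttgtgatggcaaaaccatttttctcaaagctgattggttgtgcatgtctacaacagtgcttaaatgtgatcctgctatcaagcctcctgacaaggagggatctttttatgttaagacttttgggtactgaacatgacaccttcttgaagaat
Mmp20 (chr9:7627981-7628280, plus strand): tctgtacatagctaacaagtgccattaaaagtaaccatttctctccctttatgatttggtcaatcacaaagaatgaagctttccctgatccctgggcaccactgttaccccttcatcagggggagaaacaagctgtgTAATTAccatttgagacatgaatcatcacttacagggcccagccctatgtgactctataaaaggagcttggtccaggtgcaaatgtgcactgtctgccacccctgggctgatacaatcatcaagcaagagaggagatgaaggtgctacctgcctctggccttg
The core occurred at 1 place in the Amelx window, at 2 places in the Ambn window and at none in the Enam window, and in the Mmp20 window a match on each strand overlapped in 1 stretch. Of 32851 RefSeq windows of this length, 27.03% held at least 1 match, so a match is common.

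Mt1 and its neighbour Mt2 are shown because Mt1 had the largest ratio between the libraries. Capitals mark the core of the metal response element, searched as TGCACNC and TGCGCNC on both strands, which the zinc-sensing factor Mtf1 is known to bind.
Mt1 (chr8:94178839-94179138, plus strand): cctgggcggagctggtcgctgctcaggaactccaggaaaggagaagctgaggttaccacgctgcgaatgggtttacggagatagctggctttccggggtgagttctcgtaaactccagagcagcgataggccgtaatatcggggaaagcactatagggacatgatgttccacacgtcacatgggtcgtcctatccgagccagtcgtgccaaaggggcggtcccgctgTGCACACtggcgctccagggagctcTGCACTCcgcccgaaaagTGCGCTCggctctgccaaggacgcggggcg
Mt2 (chr8:94172368-94172667, plus strand): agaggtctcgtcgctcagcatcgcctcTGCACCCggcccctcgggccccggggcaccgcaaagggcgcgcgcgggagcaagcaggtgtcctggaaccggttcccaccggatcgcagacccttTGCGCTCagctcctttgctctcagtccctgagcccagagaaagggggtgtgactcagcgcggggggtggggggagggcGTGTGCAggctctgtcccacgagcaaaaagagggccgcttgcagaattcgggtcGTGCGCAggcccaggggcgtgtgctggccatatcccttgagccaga
The Mt1 window held 3 matches and the Mt2 window 4. At least 1 match stood in 25.7% of all windows, at least 3 in 1.97% and at least 4 in 0.517%. A match describes letters and does not show that a factor was bound.

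Before any limit there were 13990 control barcodes with 73375441 UMIs and 16029 K14cre barcodes with 62158879 UMIs. After the limits on genes and mitochondrial UMIs, 13431 and 15487 barcodes remained. Epithelial UMIs kept 2273 and 1817 of them, and the collagen limit left 2158 and 1662. The enamel-rich cells were 7.97% of these epithelial barcodes in the control (exact Clopper-Pearson interval 6.86 to 9.19) and 6.74% in the K14cre library (5.58 to 8.05), and the intervals overlap. Their median depth was 4109 UMIs and 1823 genes in the control, against 3161.5 UMIs and 1437.5 genes in the K14cre library. Mitochondrial genes took 6.16% and 7.74% of their UMIs. The libraries shared 4 barcodes, none of them enamel-rich, and Scrublet called no enamel-rich cell a doublet among 176 and 243 calls.

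Amelx made up most of the enamel UMIs. It stood at 738 of every 10000 UMIs in the control cells and at 923 in the K14cre cells. Ambn stood at 19.3 and 22.0 per 10000 and was seen in 83.7% and 80.4% of cells, and Enam at 26.2 and 32.9 per 10000 in 62.8% and 71.4%. The median enamel share of a cell was 575 per 10000 in the control and 720 in the K14cre library, and the highest was 3238 and 2714. The share ran without a gap across the threshold. In the control, 16 members lay between 100 and 150 per 10000 and 25 other epithelial barcodes between 66 and 100, and in the K14cre library 7 and 24 did. The lowest member stood at 106 and 102, and the highest epithelial barcode left out at 99.2 and 97.8. The collagen limit alone removed 9 and 11 barcodes that met every other condition. Endothelial barcodes, which should lack enamel RNA, show the level of free RNA: 0.450 and 0.199 enamel UMIs per 10000, with 0 of 1200 and 0 of 993 above the threshold. Counts of 0 there allow shares of up to 0.307% and 0.371%.

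**Figure D1:**
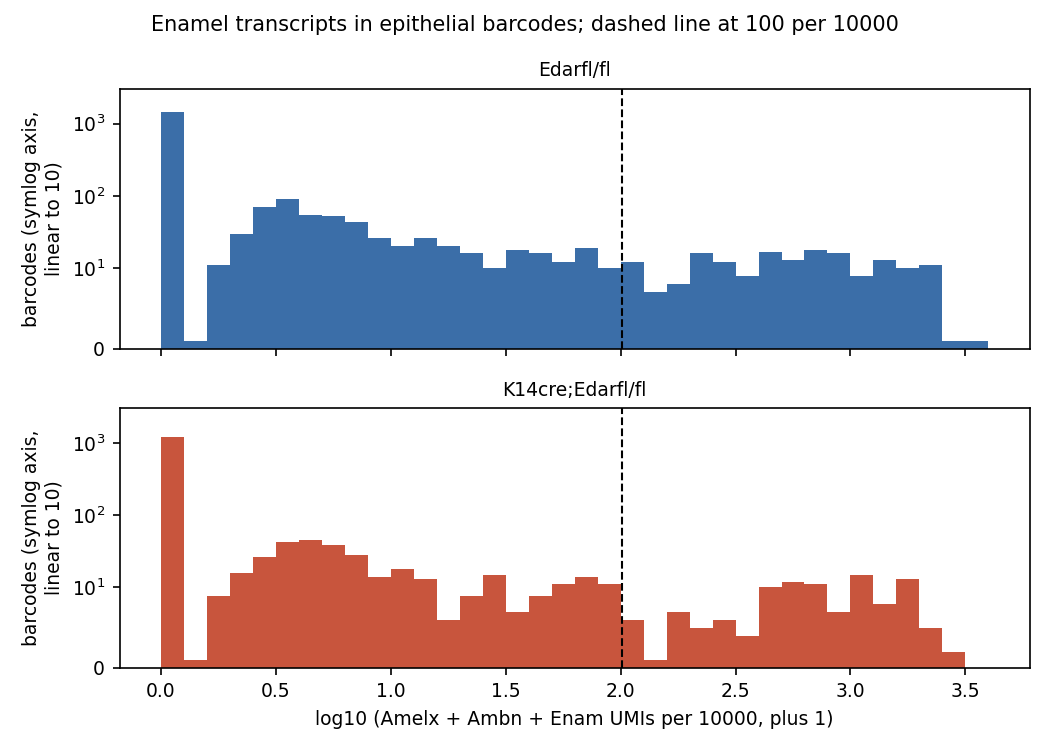
Histograms of the enamel share (Amelx, Ambn and Enam UMIs per 10000, plus 1, on a log10 scale) of epithelial barcodes in each library, with the number of barcodes on an axis that is linear to 10 and logarithmic above. The dashed line is the threshold of 100 per 10000, and bars continue on both sides of it in both libraries.

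Edar, the deleted gene, was close to absent from the enamel-rich cells of both libraries. No Edar UMI was found in the 172 control cells, which allows a share of cells with a UMI of up to 2.12%, and 1 UMI was found in the 112 K14cre cells. Levels are given below as CPM, the summed UMIs of a gene over the cells of a library per 1000000 UMIs, with the total taken without the 11 genes of the rule (742428 in the control and 364559 in the K14cre cells). Where a pair of values carries no name, the control comes first. In the other epithelial barcodes Edar (minus strand, chr10:58600789-58675654 of mm10) stood at 36.4 CPM among control barcodes and 20.1 CPM in the K14cre library. The files do not say whether these reads fall inside the deleted exons, so the level checks neither label. Krt14, whose promoter drives the Cre, had a UMI in 158 of 172 and 106 of 112 enamel-rich cells. It is one of the genes of the rule, and whether Cre had acted in a given cell was not measured.

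Markers of the secretory stage matched the label, and genes of preameloblasts were common as well. Calb1, a calcium-binding protein of ameloblasts that the rule did not use, had a UMI in 170 of 172 control and 112 of 112 K14cre cells, against 0.5% and 0.403% of endothelial barcodes (median depths 3098 and 3040 UMIs). Mmp20, the enamel protease of the secretory stage, was found in 128 and 82 cells. Of the preameloblast genes, Shh had a UMI in 61.6% and 33.9% of cells, Vwde in 72.1% and 64.3%, and Sp6 in 94.2% and 90.2%. In the other epithelium these shares were 62.4% and 51.0%, 63.7% and 60.4%, and 78.2% and 71.4%. Whether some of the enamel-rich cells were still preameloblasts was not tested. Maturation genes were nearly absent: Klk4 had 1 UMI in each library, Odam had 1 and 0, and Amtn had 0 in both. Dspp, known from odontoblasts and early ameloblasts, had a UMI in 160 and 105 cells, while the odontoblast genes Dmp1 and Bglap stood at 18.9 and 5.39 CPM in control cells and 8.23 and 2.74 CPM in the K14cre library. The whole odontoblast list of 10 genes was higher than in the other epithelium, at 166 and 214 CPM against 118 and 124 CPM. Its member Col11a2 went the other way from Dmp1 and Bglap between the libraries, at 28.3 and 76.8 CPM.

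Against the other epithelial barcodes the enamel-rich cells were set apart by many genes that were shared by the libraries. The rule of size called a gene where 1 of the sides compared reached 50 CPM, where the ratio of CPM + 5 was 2-fold or more, and where the count ratio had a conditional binomial interval without 1. By this rule 385 of 3985 genes were higher (9.66%) and 354 lower (8.88%) in the control, and 449 of 3931 higher (11.4%) and 423 lower (10.8%) in the K14cre library, with 321 higher and 249 lower in both. Both sides passed the same epithelial limits and were divided by their enamel transcripts, so these counts describe the class and test nothing. Mmp20 stood at 739 CPM against 7.43 CPM in the other control epithelium and at 793 against 2.78 CPM in the K14cre library. Dspp stood at 3388 against 93.8 CPM and at 4147 against 44.7 CPM. Calb1 stood at 6629.6 against 301 CPM and at 5544 against 184 CPM. The sodium, calcium and potassium exchanger Slc24a3 stood at 195 against 8.06 CPM and at 288 against 6.39 CPM. Other genes with the largest ratios were Ildr2, Ctnna2 (an alpha-catenin), Plod2 (a collagen lysyl hydroxylase), Rasgef1a, Ckb (brain creatine kinase), Cped1, Galnt6 (a glycosyltransferase that starts O-linked sugars) and Clu (clusterin), with log2 ratios from 3.49 to 4.92. Clu stood at 1207 against 103 CPM in control cells and at 1517 against 65.0 CPM in the K14cre library.

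Keratins and genes of other epithelial layers marked the opposite side. Krt15 and Krt13, keratins of basal and oral suprabasal cells, had no UMI in any enamel-rich cell, against 207 and 224 CPM in the other control epithelium and 211 and 203 CPM in the other K14cre epithelium. Krt6a and Krt4 each had 1 UMI in the control cells and none in the K14cre cells. Odam stood at 175 and 109.5 CPM in the other epithelium. The imprinted noncoding RNA H19 stood at 20.2 CPM against 628 CPM in control cells and at 30.2 CPM against 888 CPM in the K14cre library. Slc39a8, a zinc and manganese importer, stood at 17.5 against 320.0 CPM and at 8.23 against 310.5 CPM. Sostdc1, an inhibitor of BMP and Wnt signals in the tooth, stood at 44.4 against 571 CPM and at 21.9 against 531 CPM.

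**Figure D2:**
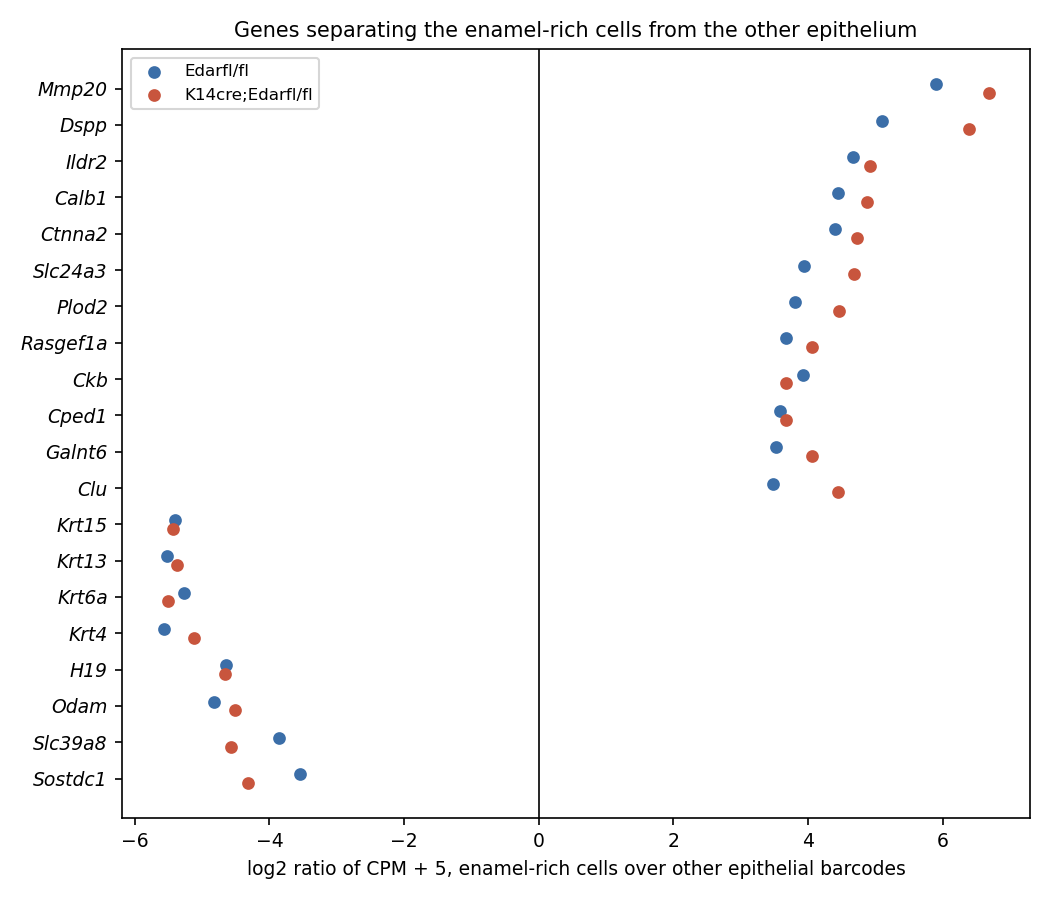
Log2 ratio of CPM + 5 of enamel-rich cells over the other epithelial barcodes for the 12 highest and 8 lowest genes, 1 point per library. All the genes drawn lie on the same side of 0 in both libraries, with Mmp20 at 5.90 in the control and 6.68 in the K14cre library and Krt15 at -5.41 and -5.43.

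Between the libraries the enamel-rich cells differed past the rule of size in 100 of 3635 genes (2.75%). In the K14cre library 45 genes were higher (1.24%) and 55 lower (1.51%). The other epithelial barcodes, compared in the same way but with far more UMIs behind each gene, gave 3 higher and 3 lower of 3563 (0.0842% each way). With so few cells, counting error alone can carry genes past a 95% interval, and at a 99.9% interval, a choice made after seeing the data, 28 genes were higher and 13 lower. Over the 10624 genes with at least 5 CPM in 1 library the median log2 ratio, K14cre over control, was -0.04, with 5007 above 0 and 5617 (52.9%) below. In order of ratio the 12 highest began with Mt1, then Lyz2, Thbs1 and Cxcl2, which 1 barcode carried almost wholly. Then came Xist, Gpc6, Rgs5, 4932438A13Rik, Hspa1b, Cebpb, Gadd45a and Hspa1a. Among those lower were Shh, cell cycle genes and the sterol enzyme Msmo1. The K14cre cells also had fewer UMIs and a larger mitochondrial share, as given above, and the part of depth and RNA quality in these differences was not tested.

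**Figure D3:**
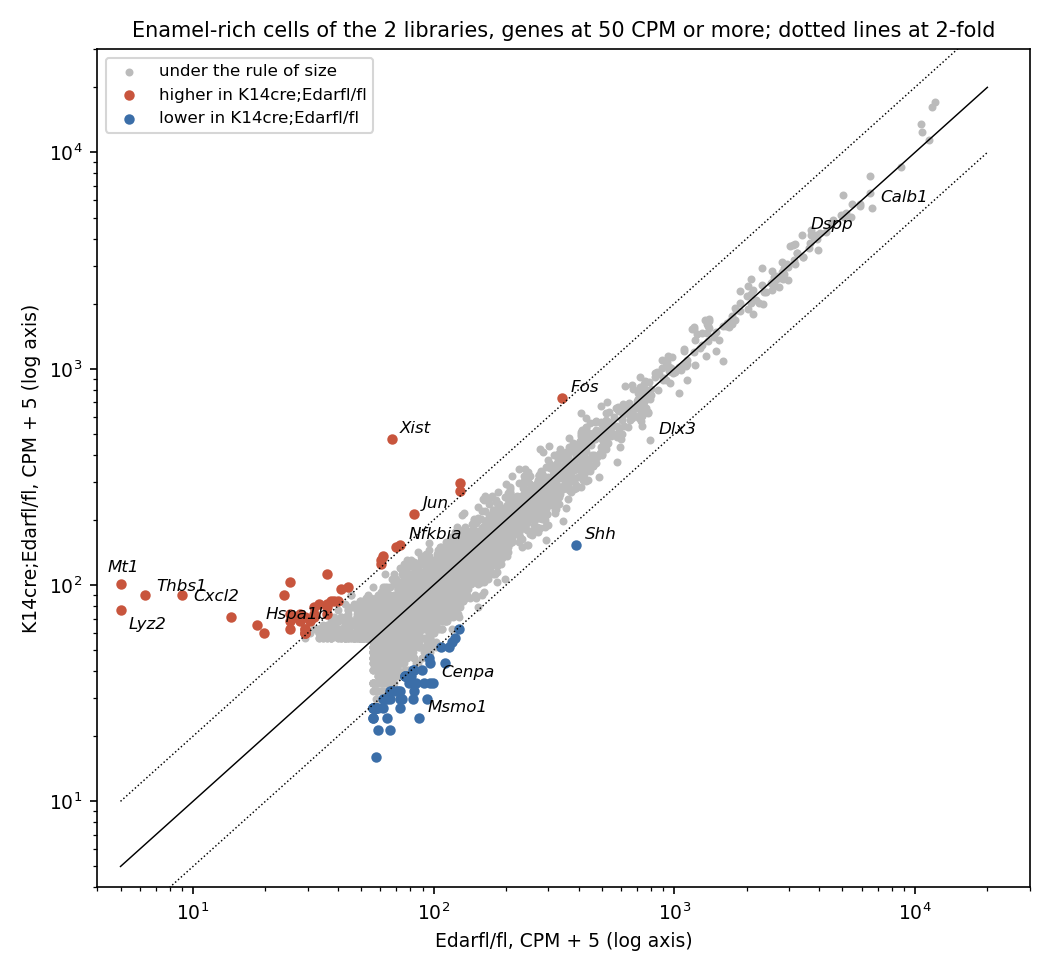
Levels of genes with at least 50 CPM in 1 library, as CPM + 5 in the control (horizontal) and K14cre (vertical) enamel-rich cells, both on log axes, with dotted lines at 2-fold. Coloured points are the 45 genes higher and 55 lower in the K14cre library, and Mt1, Lyz2, Thbs1 and Cxcl2 stand farthest above the diagonal.

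Mt1 (plus strand, chr8:94179082-94180327 of mm10) was the gene with the largest ratio. It had 0 UMIs in the 172 control cells and 35 UMIs in 22 of the 112 K14cre cells, at most 5 in 1 cell. Its level was 0 CPM in the control (Poisson interval 0 to 4.97) and 96.0 CPM in the K14cre library (66.9 to 134). Against a floor of 3 UMIs over the control cells, 4.04 CPM, it was 23.8-fold higher, a value that takes the K14cre count as exact. The interval of the count ratio, which also covers the K14cre count, begins lower, at 18.3. With 0 control UMIs in all, every subset of the control cells has 0 as well, which adds nothing to that count. In the K14cre library Mt1 stood at 116, 102 and 81.3 CPM at 100 to 300, 300 to 1000 and 1000 to 3000 enamel UMIs per 10000. Outside the class Mt1 was not absent in the control. Its level in the other epithelium was 37.1 CPM for control barcodes and 159 CPM in the K14cre library, and in endothelial barcodes 21.4 and 28.8 CPM. Cells with a UMI were 0% in the control (0 to 2.12) and 19.6% in the K14cre library (12.7 to 28.2), beside 4.33% and 7.05% of endothelial barcodes. Thinned to 1900 UMIs per cell, the enamel-rich shares were 0 of 161, fixed by the count of 0, and 11 of 94 cells (11.7%).

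The other genes of metal handling showed no such ratio. Mt2 had 4 UMIs in the control and 5 in the K14cre cells, although its level in the other epithelium was 80.0 and 104.8 CPM. Of 11 genes in the list of metallothioneins and zinc transporters, 8 reached 5 CPM in 1 library. Their log2 ratios lay 5 above and 3 below 0, with a median of 0.08. Of the 4 that reached 50 CPM, Mt1 alone passed the rule, as higher, beside 1.24% of all genes. The zinc importers Slc39a14 and Slc39a6 stood at 246 and 201 CPM in control cells and at 214 and 200.2 CPM in the K14cre library, and Mtf1 had 14 and 5 UMIs.

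Shh (minus strand, chr5:28456815-28467256 of mm10), the Hedgehog ligand of dental epithelium, was lower in the K14cre cells. It had 287 UMIs in 106 of 172 control cells and 54 UMIs in 38 of 112 K14cre cells. The levels were 387 CPM (343 to 434) and 148 CPM (111 to 193), a log2 ratio of -1.35 with a count ratio between 0.281 and 0.514. In the other epithelium Shh stood at 492 and 352 CPM, a log2 ratio of -0.48, and in endothelial barcodes at 1.02 and 0.808 CPM. Cells with a UMI were 61.6% (53.9 to 68.9) and 33.9% (25.2 to 43.5), and 45.3% of 161 and 23.4% of 94 cells after thinning to 1900 UMIs. Within each range of enamel share the K14cre cells were below the control cells: 232 against 461 CPM at 100 to 300 per 10000, 102 against 411 CPM at 300 to 1000, and 144 against 252 CPM at 1000 to 3000. The intervals of the last pair overlap (91.1 to 216 and 186 to 335). With an enamel threshold of 1000 per 10000 the log2 ratio was -0.81.

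Other Hedgehog genes lay on both sides of 0. Of 14 genes in the list, 12 reached 5 CPM, with 7 above and 5 below 0 and a median log2 ratio of 0.26. Of the 6 that reached 50 CPM, Shh alone passed the rule, as lower, beside 1.51% of all genes. Without the top cell of each gene, a choice made after seeing the data, the median was -0.05. The receptor Ptch1, itself a target of the pathway, stood at 160.3 CPM in the control (133 to 192) and 181 CPM in the K14cre library (140.0 to 230.3). The transducer Smo stood at 139 and 187 CPM. Gli1, a transcription factor and target named after its values were seen, stood at 90.2 and 151 CPM, a log2 ratio of 0.71 that is under 2-fold, with a count ratio between 1.15 and 2.42.

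Genes of the EDAR and NF-kB pathway were mostly weak in these cells. Of 28 genes, 20 reached 5 CPM, with 11 above and 9 below 0 and a median of 0.11. The median was -0.09 without the top cell of each gene. It was also -0.09 without barcodes holding macrophage or mural UMIs, and both choices were made after seeing the data. Nfkbia, the inhibitor that NF-kB itself induces, was the 1 member higher past the rule among 4 at 50 CPM, beside 1.24% of all genes. Its level was 67.3 CPM (50.0 to 88.8) in the control and 148 CPM (111 to 193) in the K14cre library. In the other epithelium it stood at 169.9 and 184 CPM. Tab2, an adaptor of the Tak1 kinase, stood at 154 and 139.9 CPM and Nfkb1, an NF-kB subunit, at 55.2 and 71.3 CPM. The adaptor Edaradd had 11 and 4 UMIs.

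Immediate early genes, transcription factors and phosphatases that cells switch on within minutes of a stimulus, stood mostly higher in the K14cre cells. Of 23 genes 20 reached 5 CPM, with 17 above and 3 below 0 and a median log2 ratio of 0.62, beside -0.04 over all genes. Of the 13 that reached 50 CPM, 6 were higher and 1 lower past the rule, against 1.24% and 1.51% of all genes. Fos stood at 337 CPM (296 to 381) in the control and 724 CPM (639 to 817) in the K14cre library, Jun at 78.1 and 208 CPM, and Fosb at 124 and 291 CPM. Klf6 stood at 124 and 266 CPM, the phosphatase Dusp1 at 36.4 and 90.5 CPM, and Junb at 26.9 and 68.6 CPM. Fosl2 was the exception past the rule, at 72.7 and 32.9 CPM. Klf4 stood at 772 and 617 CPM and Jund at 486 and 513 CPM, both under 2-fold.

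The same list was higher outside the class as well. Its summed level was 2599.6 and 3585 CPM in the enamel-rich cells, 3423 and 5209 CPM in the other epithelium, and 9244 and 11763 CPM in endothelial barcodes. Fos in the other epithelium stood at 548 and 1083 CPM. The ratio of Fos also depended on how cells were weighted and cut: its log2 ratio of 1.09 was 0.57 with each cell weighted alike, 0.59 at a collagen limit of 20 per 10000 and 0.48 at an enamel threshold of 1000. The median of the list was 0.30 at that collagen limit and 0.39 at that enamel threshold. Jun kept a log2 ratio of 0.81 or more in each of 16 alternatives. What the enamel-rich cells share with the other classes here was not tested.

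Heat shock genes, chaperones of misfolded proteins, gave 15 members at 5 CPM, with 9 above and 6 below 0 and a median of 0.24. Of the 10 that reached 50 CPM, 2 were higher past the rule, beside 1.24% of all genes. Hspa1a stood at 20.2 CPM in control cells and 68.6 CPM in the K14cre library and its neighbouring copy Hspa1b at 13.5 and 60.3 CPM. The 2 genes are nearly identical, so reads may be split between them in a way the files do not show. Among cells with Y-linked UMIs and no Xist the Hspa1a log2 ratio was -0.09. The median of the list was -0.01 in cells with Xist and no Y-linked UMI. The abundant constitutive members Hsp90ab1 and Hspa8 stood at 1587 and 1118 CPM in control cells and at 1577 and 1059 CPM in the K14cre library. Cebpb and Gadd45a, regulators of stress responses outside the lists, stood at 31.0 and 14.8 CPM in control cells and at 107 and 54.9 CPM in the K14cre library.

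Some of the largest ratios came from single barcodes. Lyz2, a lysozyme gene of the macrophage list, had 0 UMIs in the control and 26 in the K14cre library, all in 1 barcode. The same barcode held 30 of 31 UMIs of Thbs1, a matrix glycoprotein, and all 31 of the chemokine Cxcl2. It had 5604 UMIs in all, an enamel share of 271 per 10000 and 40 UMIs of the macrophage list, of which 26 were Lyz2 itself. Which type of cell this RNA came from was not tested. Thbs1 had 1 UMI and Cxcl2 3 UMIs in the control, with count ratios between 10.5 and 2573 and between 6.56 and 108. Without barcodes that hold at least 2 macrophage or 3 mural UMIs, the log2 ratio of Thbs1 was 0.31 and that of Cxcl2 -0.88, and Lyz2 had a log2 ratio of 0.00. Rgs5, a gene of mural cells, had 15 and 36 UMIs, of which 24 lay in 1 K14cre barcode with 26 UMIs of the mural list, and its log2 ratio of 2.04 was -0.21 without such barcodes. The macrophage list summed to 40.4 and 162 CPM, with the defining complement genes C1qa, C1qb and C1qc at 0, 1 and 2 UMIs in the control and 0 each in the K14cre library. Leaving these barcodes out gave 45 genes higher and 58 lower, of which 34 and 44 were among those counted with them.

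Xist, the RNA of the inactive X chromosome, stood at 62.0 CPM in control cells and 466 CPM in the K14cre library, a count ratio between 5.41 and 10.7. Cells with Xist and no Y-linked UMI numbered 12 in the control and 39 in the K14cre library, and cells with Y-linked UMIs and no Xist numbered 96 and 39. The sexes were thus mixed in unequal parts, and Shh, Mt1, Fos, Dlx3 and Dspp were read within them. Shh stood at 423 and 121 CPM in the cells with Y-linked UMIs, and at 290.5 and 144 CPM in those with Xist. Mt1 had 0 control UMIs in all, so only its K14cre levels can be read: 35.5 CPM with Y-linked UMIs and 152 CPM with Xist. Fos stood at 271 and 561 CPM in cells with Y-linked UMIs and at 352 and 841 CPM in those with Xist. Dlx3 stood at 838.5 and 504 CPM and at 734 and 364 CPM. Dspp turned its direction: it stood at 3244 CPM (3077 to 3417) in the control and 4969 CPM (4608 to 5351) in the K14cre library in cells with Y-linked UMIs, but at 4770 CPM (4255 to 5329) and 3790 CPM (3465 to 4138) in those with Xist.

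Genes that act on the enamel matrix after its secretion or while it forms differed by less than the rule of size. Of 17 enamel partners, 14 reached 5 CPM, with 10 above and 4 below 0 and a median of 0.13, and none passed the rule. With the ranges of enamel share weighted equally the median was -0.07. Mmp20 (plus strand, chr9:7628231-7674979 of mm10) stood at 739 CPM (679 to 804) in the control and 793 CPM (704 to 889.6) in the K14cre library, with a count ratio between 0.926 and 1.24. Its log2 ratio of 0.10 was -0.35 at an enamel threshold of 1000 per 10000 and 0.48 in cells with Xist. The cargo receptor Mia3 stood at 264 and 277 CPM and the integrin subunit Itgb6 at 180.5 and 203 CPM. Acp4, an acid phosphatase needed for enamel and named after its values were seen, stood at 70.0 and 121 CPM, a log2 ratio of 0.74. Dspp (plus strand, chr5:104170712-104180127) stood at 3388 and 4147 CPM, with a count ratio between 1.15 and 1.31. Its log2 ratio of 0.29 ran from -0.33 in cells with Xist to 0.61 in cells with Y-linked UMIs, so its direction depends on which cells are read.

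Genes of the secretory pathway lay on both sides of 0. All 34 genes of the list reached 5 CPM, 21 above and 13 below 0, with a median of 0.10 and none past the rule. The count ratio had an interval wholly above 1 for 9 of them and wholly below 1 for 0. Such intervals were not counted over all genes. With the ranges of enamel share weighted equally, 18 lay above and 16 below, with a median of 0.03. The chaperone Hsp90b1 stood at 2069 CPM (1967 to 2175) in the control and 2589 CPM (2427 to 2760.0) in the K14cre library. Calr, a lectin chaperone, stood at 1866 and 2282 CPM, and P4hb, a disulfide isomerase, at 1386 and 1665 CPM. The summed list was 18466 and 20924 CPM, while in the other epithelium it was 12227 and 11441 CPM. Unfolded protein response genes gave 11 above and 9 below 0 among 20, a median of 0.05 and none past the rule. Manf, a secreted stress protein, stood at 661 and 834 CPM and the transcription factor Xbp1 at 219.6 and 167 CPM.

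Calcium and ion handling genes were balanced. Of 30 genes 22 reached 5 CPM, with 12 above and 10 below 0, a median of 0.05 and none past the rule. Calb1 (plus strand, chr4:15881264-15908064 of mm10) stood at 6629.6 CPM (6446 to 6817) in the control and 5544 CPM (5305 to 5791) in the K14cre library, a log2 ratio of -0.26 with a count ratio between 0.794 and 0.881. The calcium pump Atp2b1 stood at 624 and 669 CPM. Stim1, a sensor of calcium stores named after its values were seen, stood at 175 and 107 CPM, a log2 ratio of -0.69. The maturation-stage exchanger Slc24a4 had no UMI in either library.

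Ameloblast transcription factors stood mostly lower in the K14cre cells. Of 32 genes 26 reached 5 CPM, with 5 above and 21 below 0, against 52.9% below over all genes, and a median of -0.17. None passed the rule of size. Sp6, a zinc finger factor needed for ameloblasts and known as epiprofin, stood at 1593 CPM (1504 to 1687) in the control and 1078 CPM (974 to 1190.0) in the K14cre library, a log2 ratio of -0.56. Dlx3, a homeobox factor whose mutations are tied to enamel defects, stood at 789 CPM (727 to 856) and 464 CPM (396 to 539), a log2 ratio of -0.76. Msx2 and Dlx2, homeobox factors named after their values were seen, stood at 339 and 317 CPM in control cells and at 192 and 219 CPM in the K14cre library. The chromatin organiser Satb1 stood at 1109 and 1029 CPM.

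Dlx3 and Msx2 were also lower in the other epithelium of the K14cre library. Dlx3 stood there at 333 and 217.5 CPM, a log2 ratio of -0.60, and Msx2 at 360.4 and 237 CPM, a ratio of -0.59. Sp6 stood at 811 and 729 CPM, a ratio of -0.15. Over 16 alternatives the log2 ratio of Dlx3 in the enamel-rich cells was -0.69 or lower, that of Sp6 from -0.66 to -0.46 and that of Msx2 from -0.93 to -0.66. The median of the list was 0.08 in cells with Xist and no Y-linked UMI, of which the control had 12.

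Cell cycle genes lay mostly below 0. Of 30 genes 27 reached 5 CPM, with 5 above and 22 below 0, against 52.9% below over all genes, and a median of -0.76. Of the 6 that reached 50 CPM, 1, Ube2c, was lower past the rule, beside 1.51% of all genes. Ube2c, a ubiquitin enzyme of mitosis, had 51 UMIs in 17 control cells and 9 UMIs in 5 K14cre cells. Cenpa, the centromere histone, had 70 UMIs in 21 cells and 11 UMIs in 6 cells. Hmgb2, a chromatin protein of dividing cells, stood at 379.8 CPM (337 to 427) and 274 CPM (223 to 334). At an enamel threshold of 1000 per 10000 the log2 ratio of Hmgb2 was 0.25 and that of Cenpa -0.13, while in cells with Y-linked UMIs they were -0.88 and -2.90. Mki67 and Top2a, markers of proliferation named after their values were seen, had 34 and 27 UMIs in the control and 4 and 3 in the K14cre cells. These UMIs lay in 13 and 12 control cells and in 3 and 2 K14cre cells. Cells with 2 or more UMIs of 16 genes of the G2 and M phases were 32.6% in the control (25.6 to 40.1) and 24.1% in the K14cre library (16.5 to 33.1). After thinning they were 19.3% (13.5 to 26.2) and 13.8% (7.57 to 22.5). Both pairs of intervals overlap. The summed cell cycle list stood at 2191 and 1558 CPM, and in the other epithelium at 4581 and 4433 CPM. The median of the list was -0.24 at an enamel threshold of 1000 per 10000 and -0.45 with each cell weighted alike, and -1.25 in cells with Y-linked UMIs against -0.29 in those with Xist. The cell cycle inhibitor Cdkn1a, part of the list, stood at 721 and 571 CPM.

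**Figure D4:**
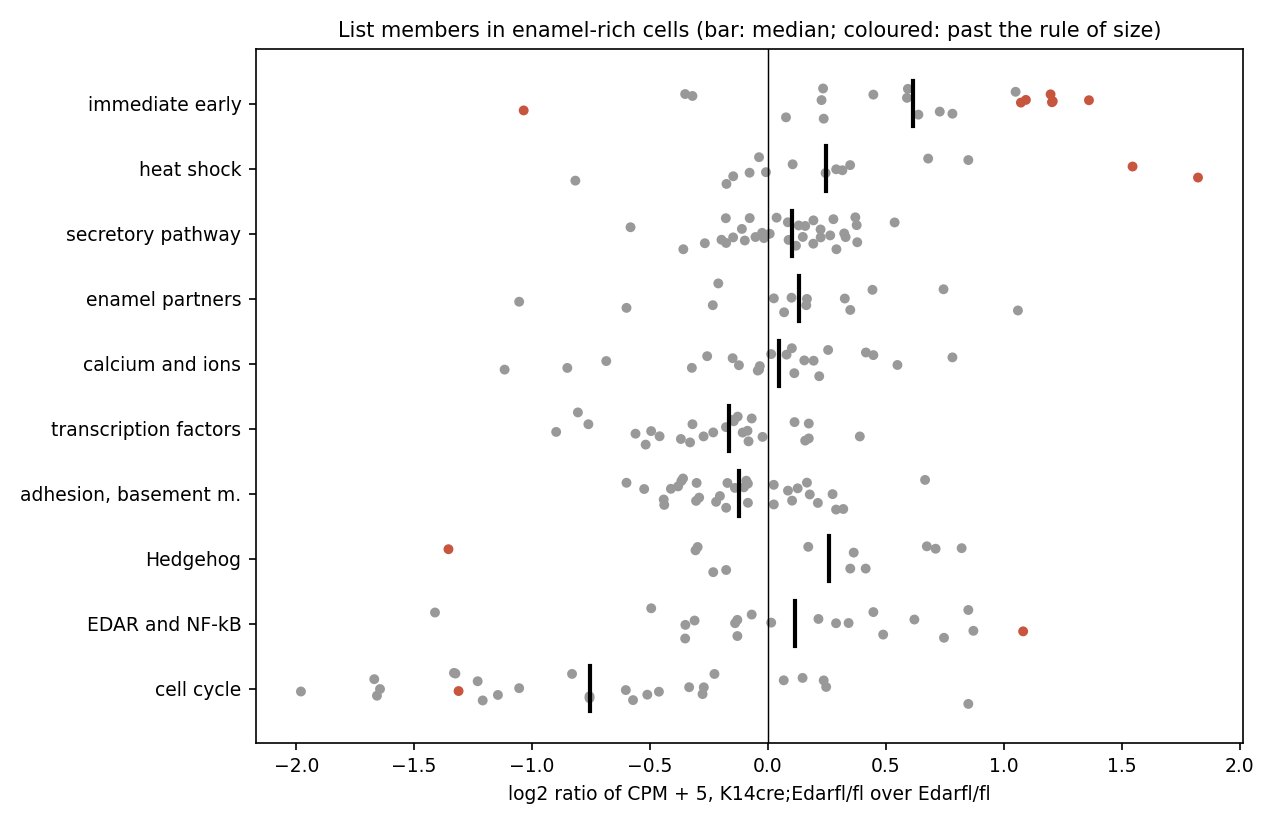
Log2 ratio of CPM + 5, K14cre over control, of list members with at least 5 CPM in 1 library, 1 point per gene, with the median as a bar and genes past the rule of size coloured. The median of immediate early genes lies at 0.62 and that of cell cycle genes at -0.76, while the medians of the secretory pathway, enamel partners and calcium lists lie between 0.05 and 0.13.

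The members varied among themselves with their enamel share. The control had 50, 77 and 44 cells at 100 to 300, 300 to 1000 and 1000 to 3000 per 10000, plus 1 cell above 3000, and the K14cre library 25, 44, 43 and 0. Amelx, Ambn and Enam set these ranges and are not read across them. Mmp20 stood at 301, 537 and 1593 CPM in control cells and at 180.2, 583 and 1256 CPM in the K14cre library. Dspp stood at 2168, 3511 and 4622 CPM and at 2703, 4185 and 4819.6 CPM. Calb1 stood at 5182, 6859 and 7935 CPM and at 4363, 5777 and 5932 CPM. Each was thus higher at each step in both libraries, although the last Calb1 step of the K14cre library lies within its interval (5561 to 6322). Acp4 stood at 22.2, 46.0 and 168 CPM and at 25.7, 118 and 169 CPM, from 2 to 32 UMIs. Cdkn1a stood at 403, 709 and 1115 CPM and at 373, 497 and 725 CPM.

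Proliferation genes ran the other way. Hmgb2 stood at 638, 353 and 121 CPM in control cells and at 502, 299 and 144 CPM in the K14cre library. Mki67 had 17, 14 and 3 UMIs in the control and 3, 1 and 0 in the K14cre library. In the epithelial barcodes below 10 enamel UMIs per 10000 Hmgb2 stood at 1114 and 1091 CPM. The K14cre library had relatively more cells in the highest range, and with the ranges weighted equally in both libraries 54 genes were higher and 51 lower, the cell cycle median was -0.48 and the Shh log2 ratio -1.21. Dlx3 showed no steep course across the ranges, at 780.2, 755 and 862 CPM and at 438, 473 and 469 CPM, and the K14cre cells stood lower in each. Sp6 stood at 1414, 1482 and 2003 CPM and at 862, 977 and 1263 CPM.

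**Figure D5:**
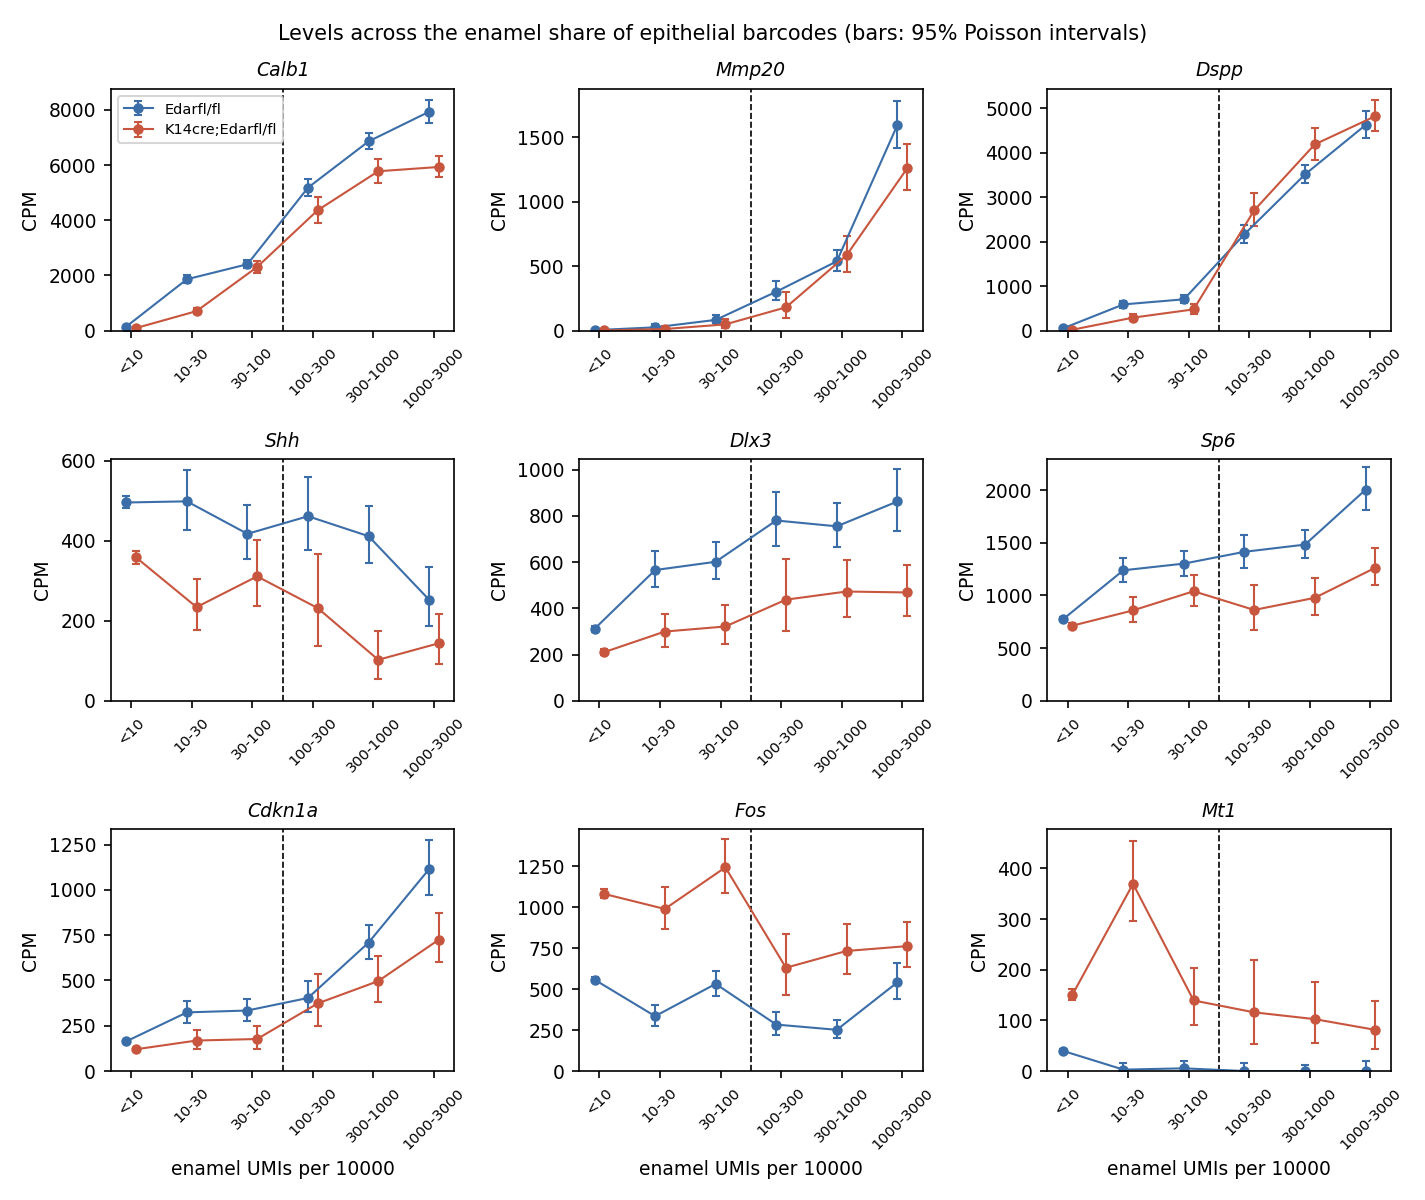
CPM of selected genes by enamel share of epithelial barcodes (UMIs per 10000) in the control and the K14cre library, with exact Poisson intervals as bars. The dashed line is the threshold of the class, to the right of which Calb1, Mmp20 and Dspp stand higher at each step, Dlx3, Sp6 and Shh stand lower in the K14cre library, and Mt1 stands at 0 in the control.

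Adhesion and basement membrane genes, which hold the ameloblast sheet together, gave 12 above and 20 below 0 among 32, a median of -0.12 and none past the rule. Ctnnb1, which encodes beta-catenin, stood at 1489.7 and 1207 CPM, the gap junction gene Gja1 at 1039.8 and 765 CPM, and the integrin subunit Itgb1 at 443 and 554 CPM. Wnt, BMP, FGF and Notch genes gave 16 above and 22 below 0 among 38, a median of -0.08 and none past the rule. The receptor Fgfr1 stood at 1044 and 1009 CPM, the ligand Tgfb2 at 714 and 645 CPM and Wnt6 at 529 and 625 CPM. Bmp4, a ligand named after its values were seen, stood at 179 and 98.7 CPM, a log2 ratio of -0.83. Glycolysis and hypoxia genes gave 5 above and 11 below 0 with a median of -0.18, and nuclear genes of the respiratory chain 9 above and 10 below with a median of -0.00, none past the rule in either list. Gapdh stood at 729 and 645 CPM and Cox6c at 759.7 and 861 CPM.

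Transcripts of several neighbouring cell types were scarce, but mesenchymal ones were found in many cells. The stratum intermedium list summed to 131 CPM in control cells, where 46 of its 97 UMIs lay in 1 cell, and to 123 CPM in the K14cre library, with a median log2 ratio of 0.64 and 5 members above and 3 below 0. Summed levels were low for oral keratinocyte genes at 53.9 and 41.1 CPM, endothelial genes at 31.0 and 13.7 CPM, and red cell genes at 29.6 and 13.7 CPM. Outer enamel epithelium and stellate reticulum genes summed to 461 and 571 CPM, glial genes to 94.3 and 52.1 CPM, and mural genes to 33.7 and 126 CPM. Keratins outside the rule gave 2 above and 4 below 0, with Krt17, a keratin of activated epithelium, at 123 and 134 CPM. Of 10 inner enamel epithelium genes at 5 CPM, 5 lay above and 5 below 0, with a median of -0.20. Of the 9 that reached 50 CPM, Shh alone passed the rule, as lower, beside 1.51% of all genes. Mesenchymal genes had a UMI in 130 control and 87 K14cre cells. They summed to 617 and 848 CPM, against 1175 and 1274 CPM in the other epithelium. Most came from Sparc, a matrix protein, at 426 and 584 CPM, and Vim at 62.0 and 101 CPM. The collagen gene Col1a1, limited by the rule, had a UMI in 79.1% and 81.3% of cells, and Col1a2 in 70.9% and 70.5%. Of the 2 odontoblast genes that reached 50 CPM, 1, the fibrillar collagen Col11a2, was higher past the rule, beside 1.24% of all genes. It stood at 28.3 and 76.8 CPM, from 21 and 28 UMIs in 19 and 24 cells. Their part in the results above was not tested.

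The remaining genes among the 12 highest were Gpc6, a heparan sulfate proteoglycan, at 9.43 and 65.8 CPM in 6 and 15 cells, and 4932438A13Rik at 18.9 and 85.0 CPM in 14 and 28 cells. Among the 12 lowest, Msmo1, an enzyme of cholesterol synthesis, stood at 82.2 CPM (62.8 to 106) in the control and 19.2 CPM (7.72 to 39.6) in the K14cre library, and its log2 ratio ran from -2.14 to -1.51 over 16 alternatives. Nrf1, a transcription factor of respiratory genes, had 39 and 4 UMIs, and the ribosome assembly gene Nhp2 57 and 9. Pabpn1, a poly(A)-binding protein, had 68 and 11 UMIs, and Ppp2r2c, a phosphatase subunit, 50 and 8. Tenm4, a teneurin, and Setbp1, a SET-binding protein, had 79 and 66 UMIs in the control and 14 and 9 in the K14cre cells. In cells with Xist their log2 ratios were 1.32 and 1.08, from 1 control UMI each. Adgrf4, Rabgef1, Gm40193 and 4933434E20Rik had 40 to 64 UMIs in the control and 6 to 11 in the K14cre cells.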

How the data were processed

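Newborn molar germs were dissociated and captured on the BD Rhapsody system, per the labels' protocols. The values are whole-number UMI counts, 1 per gene and barcode, and the authors deposited them without normalization. STARsolo and mm10 are named in the submitters' processing notes, and for its version, the annotation and the barcode filter the entry is "not given in the sources used here". Positions come from GENCODE M21, which held 31184 of 31253 features, and promoter sequences from RefSeq, which matched 9 of 12 genes looked up and not Calb1, Shh or Dspp.

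UMIs were summed over the enamel-rich cells of each library (python 3.11.15, numpy 2.4.6, scipy 1.17.1, pandas 2.3.3). With 1 library per group no test or p-value was computed. Log2 ratios are of CPM + 5, which understates ratios of weak genes. Levels carry exact Poisson, shares Clopper-Pearson and ratios conditional binomial intervals. Low-level genes stayed out of lists below 5 CPM and of counts below 50 CPM. Doublets were called per library with Scrublet (scanpy 1.11.5), and the calling left the class as it was. The endothelial barcodes had at least 3 UMIs of endothelial genes and at most 1 epithelial UMI. The comparison was run on simulated Poisson counts drawn for each gene alone. These counts have no clustering of UMIs within cells, so they do not cover genes carried by 1 barcode. The text names the 12 highest and 12 lowest ratios past the rule, list members past the rule, and 12 and 8 genes of the contrast with other epithelium. It also names a fixed set of enamel, metal and signalling genes. The 3 strongest members of each list were to be named too, but for several lists fewer or none are named. The cells, lists and rules were chosen with earlier results of these data known. A symbol that the files repeat, 4933434E20Rik, was read by its identifier ENSMUSG00000027942. Alternatives covered the pseudocount, level filter, total, weights, depth, thresholds, doublets and sex, and 3 were added after seeing the data.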

Additional observations from a re-analysis of the deposited data

How the results depend on the processing

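The count of 45 genes higher and 55 lower became 118 and 140 at a level of 20 CPM and 165 and 169 with no level filter. An enamel threshold of 1000 per 10000 gave 88 and 109, cells with Y-linked UMIs only 113 and 83, cells with Xist only 70 and 135, and a 99.9% interval, added after seeing the data, 28 and 13. Thinning to 1900 UMIs gave 94 lower, and a mitochondrial limit of 10% gave 77 higher. Higher genes were 45.0% of calls, but 57.7% in cells with Y-linked UMIs, 34.1% in cells with Xist, 68.3% at the 99.9% interval and 34.0% with the top cell of each gene left out. Of the 45 and 55 genes, 24 and 21 were among the calls after thinning, 21 and 14 at an enamel threshold of 1000, 25 and 16 in cells with Y-linked UMIs, and 9 and 9 in cells with Xist. Fewer cells stand behind the sex and threshold settings. The share of the class in epithelial barcodes was 5.653% and 5.235% at an enamel threshold of 300, 2.085% and 2.587% at 1000, 11.25% and 14.34% among cells with Y-linked UMIs, 3.235% and 4.987% among cells with Xist, and 9.248% in the control after thinning. Of 5072 recomputed gene ratios 4662 stayed within their counting interval. A sign change met 12 of the 560 ratios of genes past the rule of size and 509 of the 4512 ratios of genes under it. At an enamel threshold of 1000, Thbs1 stood at -1.03, Cxcl2 at -1.63 and Adgrf4 at 0.77, and at 300 Cxcl2 stood at -0.83. At a collagen limit of 20, Cxcl2 stood at -1.01 and Rgs5 at -2.52. Without each gene's top cell Cxcl2 stood at -0.34, and without barcodes holding macrophage or mural UMIs at -0.88, with Rgs5 at -0.21. Hspa1a stood at -0.089 in cells with Y-linked UMIs, and Setbp1 at 1.08 and Tenm4 at 1.32 in cells with Xist. The cause of the other shifts was not tested. No paired analysis was possible because each group is 1 library. Depth is 1 limit: 364559 UMIs stand behind the K14cre cells.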

Other observations

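Idi1, like Msmo1 an enzyme of sterol synthesis and named after its values were seen, stood at 110.4 CPM in control cells and 46.6 CPM in the K14cre cells, past the rule of size. In the other epithelium Msmo1 stood at 58.9 and 44.4 CPM, a log2 ratio of -0.37. Gpc6, one of the 12 highest ratios, stood at 45.2 and 54.4 CPM in the other epithelium, so that the control enamel-rich cells, at 9.43 CPM, were the low value of the 4. Col11a2 stood at 7.11 and 2.95 CPM in the other epithelium, below both enamel-rich values.

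Mt1 in the epithelial barcodes just below the class also differed between the libraries. At 10 to 30 enamel UMIs per 10000 Mt1 had 1 UMI in 79 control cells and 90 UMIs in 55 K14cre cells, and at 30 to 100 it had 2 UMIs in 76 cells and 26 UMIs in 52 cells. Below 10 per 10000 it stood at 39.9 and 151 CPM. No test of these differences exists with 1 library per group.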
